A study of Mus musculus with 12 samples.

Results

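Collagen genes were taken as the genes whose symbol is Col, a number, the letter a and a second number, each of which encodes 1 α-chain of a collagen. The table of 55401 genes held 44 of them. They comprised 11 genes of fibrillar collagens, 6 of basement membrane collagen IV, 6 of beaded filament collagen VI, 9 of fibril-associated collagens, 2 of multiplexins, 3 of network-forming collagens, 4 of transmembrane collagens and 3 of other types. Of the 44, 30 reached at least 1 TPM (a level per transcript length, scaled so that each library sums to 1000000) in at least 3 libraries and were tested among 15504 genes that passed the same filter.

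The tissue was orthotopic mammary tumor of 4T1, a transplantable mouse breast carcinoma line, grown in Balb/c mice with their own stroma, vessels and immune cells. The 12 libraries comprised 4 groups of 3 tumors. Mice received a control isotype (IgG1-Fc, here control IgG), a CSF1R antibody (aCSF1R) that blocks the receptor macrophages need for survival, recombinant IL10-Fc protein (IL-10-Fc), or BF10, an IL10/CSF1R fusion protein. Per the methods of the study, BF10 carries human IL-10 on the antibody against CSF1R. All groups carried the same tumor line and the labels name no genetic change in the mice. Dosing began at about 100 mm3, for 6 doses by the sample labels and 4 by the series description. Replicate numbers are those of the labels: 4, 5 and 7 in control IgG, 4, 6 and 8 in aCSF1R, 2, 4 and 7 in IL-10-Fc and 3, 6 and 7 in BF10. Values of a group are always given in that order. Sources name no animal for each library, so p-values measure only the spread between these libraries.

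Collagens are the main structural proteins of the extracellular matrix. Their α-chains fold as triple helices, either of identical chains or of fixed mixtures, and are hydroxylated, secreted, trimmed and cross-linked into fibrils, networks or beaded filaments. In solid tumors fibrillar collagens come mostly from fibroblasts and mural cells, and basement membrane collagens also from endothelial and epithelial cells.

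One property of the libraries bears on every value below. The deposited FPKM values summed to between 609695 and 648413 in 7 libraries, and to between 782919 and 921581 in the other 5, which were control IgG 4 and 7, aCSF1R 8, IL-10-Fc 7 and BF10 6. These are called lower-sum and higher-sum libraries. Each group held both kinds, so each comparison is also given with the library set as a term in the fit. The labels name no batch that corresponds to the sets.

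Collagen mRNA made up 0.152% to 1.24% of all TPM, and its summed level spread widely within 3 of the 4 groups. The sums were 2870, 5191 and 1519 TPM in control IgG. They were 8176, 4619 and 1588 TPM in aCSF1R and 12444, 2861 and 3762 TPM in BF10. In IL-10-Fc they were 5232, 8588 and 5501 TPM, the narrowest range of the 4 groups. The highest library of a group stood above its lowest by 1.64-fold in IL-10-Fc, 3.42-fold in control IgG, 4.35-fold in BF10 and 5.15-fold in aCSF1R. All IL-10-Fc sums lay above all control sums, by the narrow margin of 5232 over 5191 TPM, and every other pair of groups overlapped. In a bulk sample, fewer cells that make collagen and less collagen mRNA per cell cannot be told apart.

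Types I and III dominated. Col1a1, Col1a2 and Col3a1 together held between 41.0% and 69.2% of the collagen TPM of a library. Next by mean level came Col7a1 at 266.9 TPM, Col5a2 at 235 TPM, Col12a1 at 225 TPM and Col6a1 at 218 TPM. The plot of levels by library shows the 30 tested genes, whose means reach from 1.16 TPM in Col8a2 to 1535 TPM in Col3a1.

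**Figure D1:**
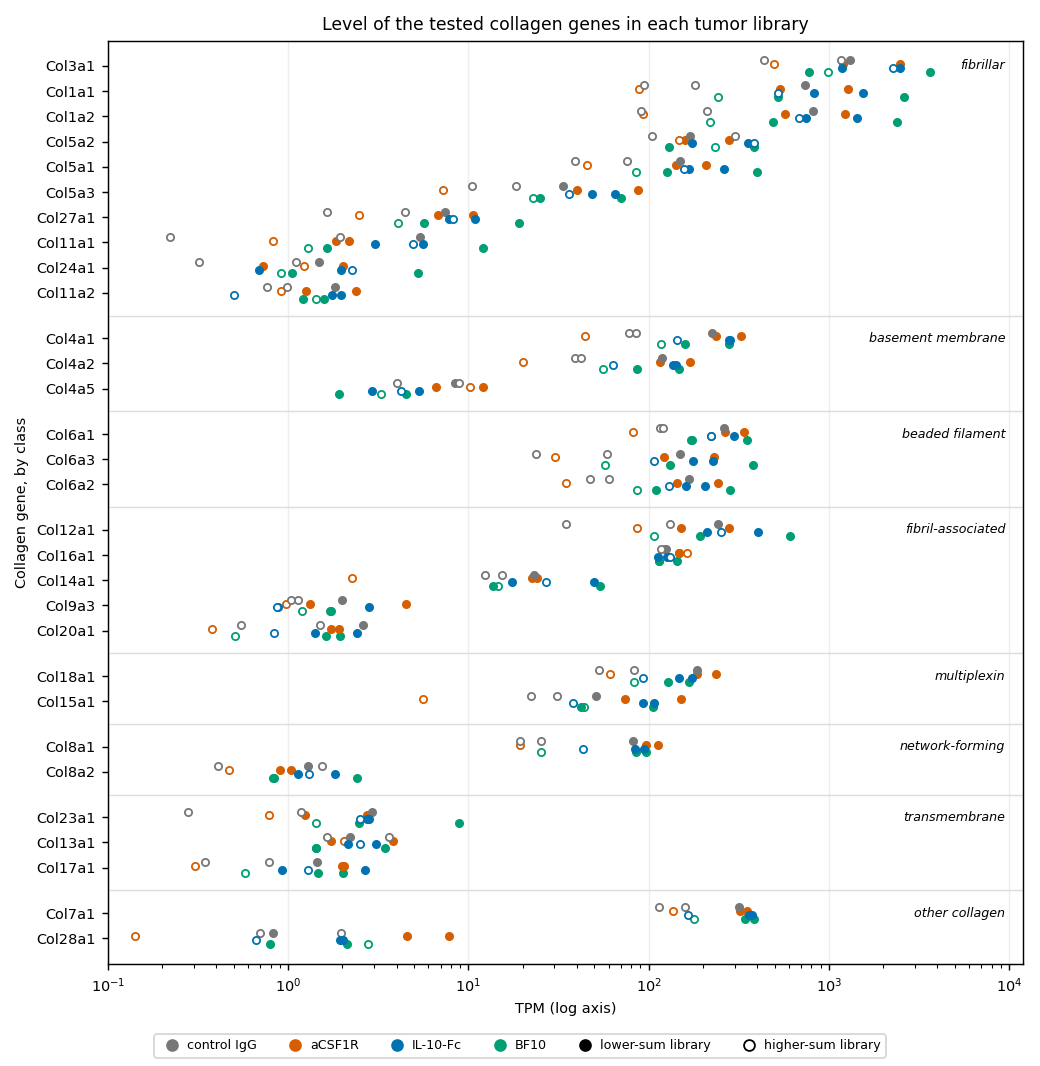
TPM (x axis, log scale) of each of the 30 tested collagen genes (y axis, grouped by class) in each of the 12 libraries, 1 point per library, colored by group, with open points for the 5 higher-sum libraries. For Col1a1, Col4a1, Col6a3 and Col8a1 the open points lie mostly to the left, whereas the 12 points of Col16a1 fall within 113 to 164 TPM.

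Fibrillar collagens build the tensile fibers of the stroma. Col3a1, the single chain of collagen III, which co-assembles with collagen I in soft tissue, was the most abundant collagen gene, at 1166, 1303 and 438 TPM in control IgG, 2494, 1202 and 499 in aCSF1R, 1182, 2477 and 2268 in IL-10-Fc and 3627, 988 and 779 in BF10. Col1a1, the major chain of collagen I, was at 182, 739 and 94.0 TPM in control IgG, 1272, 535 and 88.8 in aCSF1R, 823, 1537 and 522 in IL-10-Fc and 2597, 241 and 522 in BF10. BF10 replicate 3 was the highest library for both genes and each group overlapped each other group. Col1a2, the second chain of collagen I, ranged from 90.7 to 2391 TPM. Collagen V starts and limits the growth of collagen I fibrils, and its main chain Col5a1 was at 75.9, 150.0 and 39.0 TPM in control IgG, 209, 141 and 45.4 in aCSF1R, 167, 263 and 157 in IL-10-Fc and 398, 85.1 and 126 in BF10. All 3 IL-10-Fc values of Col5a1 lay above all 3 control values, whereas BF10 and aCSF1R overlapped control IgG. Col5a2 ranged from 104 to 386 TPM and Col5a3 from 7.22 to 87.6 TPM. The rest of the class was low: the mean was 7.43 TPM for Col27a1, 3.41 TPM for Col11a1, 1.58 TPM for Col24a1 and 1.38 TPM for Col11a2, while Col2a1, the chain of cartilage collagen II, did not exceed 0.293 TPM in any library.

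The promoter windows of Col1a2 and Col3a1 are printed because these are the 2 most abundant collagen genes with a RefSeq window among those given for GRCm38.p6, each covering 250 bases before and 50 after the annotated start, 5′ to 3′ on the gene's strand. A window was found for 35 of the 44 genes, 38 windows in all, and Col1a1 was not among them. Capitals mark the CCAAT box (CCAAT), the GC box (GGGCGG) and the TATA box (TATAAA) on either strand, with no overlap between marked motifs in the windows printed here.
Col1a2, chr6:4505368-4505667, plus strand: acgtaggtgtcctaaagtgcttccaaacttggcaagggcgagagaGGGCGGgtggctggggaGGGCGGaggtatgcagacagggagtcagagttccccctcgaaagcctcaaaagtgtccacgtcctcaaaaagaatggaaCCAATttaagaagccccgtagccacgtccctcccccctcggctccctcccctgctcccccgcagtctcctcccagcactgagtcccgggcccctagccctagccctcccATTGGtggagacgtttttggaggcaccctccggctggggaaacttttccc
Col3a1, chr1:45311288-45311587, plus strand: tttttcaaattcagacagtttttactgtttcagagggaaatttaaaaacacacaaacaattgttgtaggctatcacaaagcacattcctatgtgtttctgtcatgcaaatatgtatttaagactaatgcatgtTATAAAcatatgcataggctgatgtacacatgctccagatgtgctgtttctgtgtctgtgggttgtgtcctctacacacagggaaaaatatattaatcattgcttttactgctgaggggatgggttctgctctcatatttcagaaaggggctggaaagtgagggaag
The Col1a2 window held CCAAT in both orientations and GGGCGG at 2 places. The Col3a1 window held TATAAA once and neither of the other motifs. The CCAAT box was found in 34.2% of the collagen windows and in 37.4% of all 32851 windows of this length, the GC box in 60.5% and 35.7%, and the TATA box in 13.2% and 13.6%. A match describes the letters and is not evidence of binding.

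Collagen IV forms the sheet of basement membranes, under vessels and epithelia. Its main chains were abundant and parallel. Col4a1 was at 78.1, 224 and 85.1 TPM in control IgG, 325, 237 and 44.1 in aCSF1R, 279, 282 and 143 in IL-10-Fc and 278, 117 and 159.7 in BF10. Col4a2 was at 38.9, 119 and 42.1 TPM in control IgG, 169.7, 115 and 20.1 in aCSF1R, 136, 142 and 63.0 in IL-10-Fc and 147, 55.7 and 86.0 in BF10. In both genes the groups overlapped and aCSF1R replicate 8 was the lowest library. Of the minor chains, which form other collagen IV networks, Col4a5 was measurable in all libraries, whereas Col4a6 did not exceed 0.377 TPM, Col4a3 0.0785 TPM and Col4a4 0.0820 TPM.

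Col4a1 and Col4a2 lie head to head on chromosome 8. In GRCm38, Col4a1 spans 11198423 to 11312826 on the minus strand and Col4a2 spans 11312805 to 11449287 on the plus strand, so that their annotated exons overlap by 22 bases and their promoter windows share 78 bases, chr8:11312777-11312854. Both windows are printed because the 2 genes kept nearly the same ratio in all 12 libraries. Col4a5, which leads the group comparisons, lies head to head with Col4a6 on chromosome X, and there the starts used for the RefSeq windows, 141475419 and 141474076, are 1343 bases apart and the windows share no base. In the GENCODE annotation on the same build, from which all gene spans here come, Col4a5 starts upstream of its RefSeq start and spans 141475385 to 141689234 on the plus strand. Capitals mark the same motifs as above.
Col4a1, chr8:11312777-11313076, minus strand: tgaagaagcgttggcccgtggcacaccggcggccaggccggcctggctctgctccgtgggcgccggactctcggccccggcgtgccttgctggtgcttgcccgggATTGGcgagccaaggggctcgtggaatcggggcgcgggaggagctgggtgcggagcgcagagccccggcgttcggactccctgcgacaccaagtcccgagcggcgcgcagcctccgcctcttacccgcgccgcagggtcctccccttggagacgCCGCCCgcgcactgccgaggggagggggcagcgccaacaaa
Col4a2, chr8:11312555-11312854, plus strand: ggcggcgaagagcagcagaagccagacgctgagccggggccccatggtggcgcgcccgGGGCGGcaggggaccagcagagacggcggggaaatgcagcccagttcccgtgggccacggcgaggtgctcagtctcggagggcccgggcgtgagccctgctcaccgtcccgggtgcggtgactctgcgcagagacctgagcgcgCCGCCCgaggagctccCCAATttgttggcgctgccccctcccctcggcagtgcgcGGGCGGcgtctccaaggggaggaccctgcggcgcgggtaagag
Col4a5, chrX:141475169-141475468, plus strand: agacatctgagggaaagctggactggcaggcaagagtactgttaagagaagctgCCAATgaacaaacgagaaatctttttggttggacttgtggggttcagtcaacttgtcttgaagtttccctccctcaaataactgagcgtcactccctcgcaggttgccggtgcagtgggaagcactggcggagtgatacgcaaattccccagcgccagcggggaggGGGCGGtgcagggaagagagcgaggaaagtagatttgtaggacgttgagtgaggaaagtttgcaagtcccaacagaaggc
Col4a6, chrX:141474027-141474326, minus strand: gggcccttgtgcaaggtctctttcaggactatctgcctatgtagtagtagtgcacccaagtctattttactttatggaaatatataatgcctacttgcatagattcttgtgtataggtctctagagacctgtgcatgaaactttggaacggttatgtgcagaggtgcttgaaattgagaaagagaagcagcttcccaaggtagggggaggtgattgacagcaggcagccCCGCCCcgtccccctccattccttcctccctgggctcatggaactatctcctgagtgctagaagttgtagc
The Col4a1 window held CCAAT once and GGGCGG once, and the Col4a2 window held CCAAT once and GGGCGG 3 times. The Col4a5 window held CCAAT once and GGGCGG once, and the Col4a6 window held GGGCGG once. TATAAA was in none of these 4 windows.

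Collagen VI forms beaded microfilaments around cells and fibrils. Col6a1 was at 115, 261 and 119.7 TPM in control IgG, 339.8, 264 and 81.5 in aCSF1R, 222, 297 and 221 in IL-10-Fc and 350.3, 171 and 175 in BF10. Col6a3, the long chain, was at 58.3, 150.1 and 23.6 TPM in control IgG, 229.7, 121 and 30.2 in aCSF1R, 176, 227 and 107 in IL-10-Fc and 379, 57.3 and 132 in BF10. Both were highest in BF10 replicate 3, and the groups overlapped. Col6a2 ranged from 34.8 to 282 TPM, and Col6a4, Col6a5 and Col6a6 stayed under the filter with mean levels of 0.224, 0.271 and 0.103 TPM.

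The fibril-associated collagens bind the surface of fibrils. Col12a1 was at 132, 241 and 34.8 TPM in control IgG, 279.7, 151 and 86.4 in aCSF1R, 211, 403 and 253 in IL-10-Fc and 606, 107 and 193 in BF10. Col16a1 was at 124, 124 and 116 TPM in control IgG, 147, 147 and 164 in aCSF1R, 113, 127 and 131 in IL-10-Fc and 143, 114 and 114 in BF10. Col12a1 varied 17.4-fold over the 12 libraries and Col16a1 only 1.45-fold, the narrowest range of the 30 tested genes. The 3 aCSF1R values of Col16a1 lay above the other 9. Col14a1 was at 15.3, 23.2 and 12.4 TPM in control IgG, 22.6, 23.9 and 2.26 in aCSF1R, 17.3, 49.7 and 26.8 in IL-10-Fc and 53.7, 14.5 and 13.6 in BF10, with aCSF1R replicate 8 far below the rest. Col9a3 and Col20a1 had means of 1.68 and 1.45 TPM. The exons of Col9a3 overlap those of Tcfl5 on the other strand by 234 bases, and whether the counting used strand is not given in the sources used here.

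Multiplexins are basement membrane collagens whose C-terminal ends release anti-angiogenic fragments such as endostatin, which comes from Col18a1. Col18a1 was at 53.1, 187 and 83.3 TPM in control IgG, 185, 235 and 61.2 in aCSF1R, 173, 147 and 93.6 in IL-10-Fc and 128, 82.8 and 167 in BF10. Col15a1 was at 31.1, 51.3 and 22.4 TPM in control IgG, 151, 73.7 and 5.63 in aCSF1R, 107, 93.3 and 37.8 in IL-10-Fc and 106, 43.7 and 42.4 in BF10. The groups overlapped in both genes and Col15a1 was lowest in aCSF1R replicate 8. Of the network-forming collagens, Col8a1, a vessel wall collagen, was at 25.4, 81.8 and 19.4 TPM in control IgG, 113, 96.5 and 19.3 in aCSF1R, 84.0, 94.7 and 43.4 in IL-10-Fc and 96.1, 25.3 and 84.8 in BF10. Its partner Col8a2 was at 1.54, 1.29 and 0.41 TPM in control IgG, 1.04, 0.902 and 0.467 in aCSF1R, 1.13, 1.82 and 1.303 in IL-10-Fc and 2.41, 0.82 and 0.838 in BF10. All IL-10-Fc values of Col8a2 lay above all its aCSF1R values, and the other groups overlapped in both genes. Col8a1 was the dominant chain of collagen VIII in all 12 libraries, and Col10a1, a marker of hypertrophic cartilage, did not exceed 0.164 TPM.

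Col7a1 forms the anchoring fibrils that tie epithelium to stroma and is made mainly by epithelial cells. It was at 159.7, 315 and 114 TPM in control IgG, 349.6, 321 and 137 in aCSF1R, 373, 359 and 166 in IL-10-Fc and 344, 179 and 386 in BF10. The 5 higher-sum libraries held its 5 lowest values, and the groups overlapped. Col28a1, a minor collagen known from peripheral nerve, was at 0.695, 0.826 and 1.95 TPM in control IgG, 7.82, 4.56 and 0.141 in aCSF1R, 1.95, 2.02 and 0.664 in IL-10-Fc and 0.798, 2.79 and 2.13 in BF10. The transmembrane collagens sit on the cell surface and were low. Col23a1 was at 1.18, 2.91 and 0.277 TPM in control IgG, 2.75, 1.25 and 0.781 in aCSF1R, 2.80, 2.75 and 2.49 in IL-10-Fc and 8.82, 1.42 and 2.48 in BF10. Col13a1 was at 3.61, 2.21 and 1.64 TPM in control IgG, 3.82, 1.72 and 2.03 in aCSF1R, 2.14, 3.07 and 2.49 in IL-10-Fc and 3.43, 1.44 and 1.43 in BF10. The groups overlapped in these 3 low genes. Col17a1, the hemidesmosome collagen, ranged from 0.304 to 2.67 TPM.

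The other 14 genes did not pass the filter and were not compared. They were Col2a1, Col4a3, Col4a4, Col4a6, Col6a4, Col6a5, Col6a6, Col9a1, Col9a2, Col10a1, Col19a1, Col22a1, Col25a1 and Col26a1, and their highest mean was 0.424 TPM, in Col9a2. Col19a1 was listed above 0 in 3 libraries and Col22a1 in 4.

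No collagen gene passed the threshold in any of the 6 comparisons. The threshold was an adjusted p under 0.05 in limma, with Benjamini-Hochberg adjustment over all 15504 genes, and a change of at least 1.5-fold on the scale of log2(TPM + 1), which understates the change of low genes. Over all genes, limma called 0% in BF10 against control IgG, 0.00645% in IL-10-Fc against control IgG, 0.568% in aCSF1R against control IgG, 0% in BF10 against IL-10-Fc, 0.735% in BF10 against aCSF1R and 0.542% in IL-10-Fc against aCSF1R. At an unadjusted p under 0.05, limma found 1 of the 30 collagen genes in BF10 against control IgG, 1 in BF10 against aCSF1R, 1 in IL-10-Fc against aCSF1R and 0 in the remaining 3 comparisons. Of all 15504 genes, it found 234, 661 and 552 in the first 3 of these. The counts were 224 in IL-10-Fc against control IgG, 537 in aCSF1R against control IgG and 42 in BF10 against IL-10-Fc. The standard error of the log2 change had a median of 0.63 over the 30 genes, against 0.43 over all genes tested.

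Against control IgG, most collagen genes had higher fitted values in each treated group, as had most genes of the whole table. In BF10, 27 of 30 were higher and 3 lower, with a median log2 change of 0.60 against 0.32 over all genes. In IL-10-Fc, 29 were higher and 1 lower, with a median of 0.75 against 0.35. In aCSF1R, 26 were higher and 4 lower, with a median of 0.37 against 0.24, and without aCSF1R replicate 4 that collagen median turned to -0.10. Relative to the median of all genes, which depends on the scaling, the collagen genes were thus higher by 0.28, 0.39 and 0.13. With the library set as a term, the collagen medians were 0.21, 0.40 and 0.07 and the medians of all genes 0.07, 0.10 and 0.01. Control IgG was the group with 2 higher-sum libraries of 3. By class, the fibrillar genes had median log2 changes of 0.76, 1.05 and 0.42 in the same order, the beaded filament genes 0.82, 1.04 and 0.45, and the fibril-associated genes 0.10, 0.04 and 0.32.

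**Figure D2:**
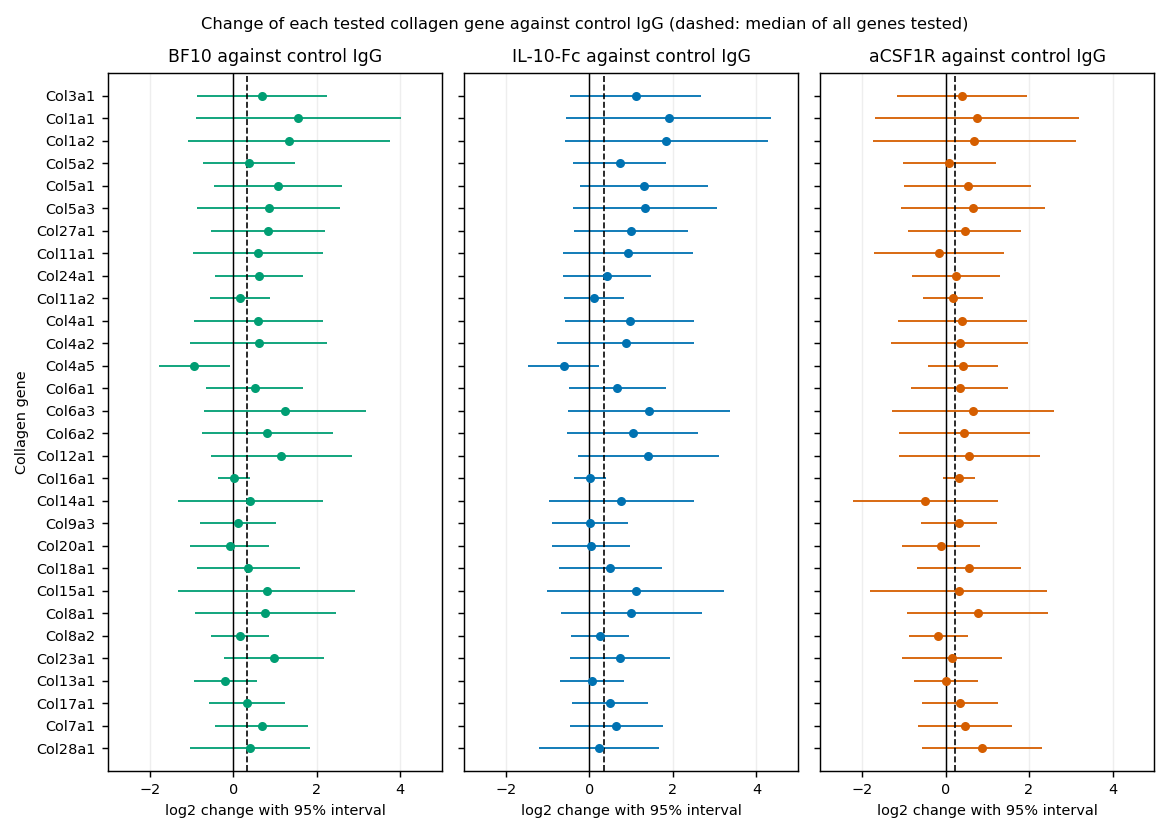
Fitted log2 change of log2(TPM + 1) against control IgG (x axis) for each of the 30 tested collagen genes (y axis) in BF10, IL-10-Fc and aCSF1R, with 95% intervals from limma, the dashed line being the median of all genes tested. All intervals include 0 except that of Col4a5 in BF10, which reaches from -1.77 to -0.09 and whose adjusted p was 0.788.

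Both chains of collagen I had the widest intervals. Col1a1 had a log2 change of 1.56 (SE 1.11) in BF10 and 1.90 in IL-10-Fc, with adjusted p of 0.788 and 0.738 by limma, and the 95% intervals reached from -0.89 to 4.01 and from -0.55 to 4.35. Col5a1 had the smallest p of the higher genes in IL-10-Fc, with a log2 change of 1.31 (SE 0.69, limma adjusted p = 0.738). Col23a1 had it in BF10, at 0.98 (SE 0.54, limma adjusted p = 0.788). In aCSF1R, Col16a1 was higher by 0.33 (SE 0.17, limma adjusted p = 0.893), a small but narrowly spread difference, and Col14a1 was lower at -0.49 (SE 0.79, limma adjusted p = 0.893). Without aCSF1R replicate 8 the Col14a1 value turned to 0.48.

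Complete separation of 2 groups of 3 was read beside its frequency in the whole table. It occurred for 0 of 30 collagen genes in BF10 against control IgG (3.53% of all genes), 3 in IL-10-Fc against control IgG (6.53%), 1 in aCSF1R against control IgG (5.28%), 0 in BF10 against IL-10-Fc (2.13%), 2 in BF10 against aCSF1R (5.91%) and 4 in IL-10-Fc against aCSF1R (7.49%). With 30 genes, none of these counts was read as a result about the collagen genes. The genes were Col5a1, Col5a3 and Col27a1 in IL-10-Fc against control IgG, Col16a1 in aCSF1R against control IgG, Col4a5 and Col16a1 in BF10 against aCSF1R, and Col4a5, Col8a2, Col11a1 and Col16a1 in IL-10-Fc against aCSF1R. An exact permutation of 3 against 3 libraries cannot give a p below 0.1.

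Between the treated groups, the collagen genes had lower fitted values in BF10 than in IL-10-Fc for 24 of 30, with a median log2 change of -0.23 against -0.05 over all genes. Without BF10 replicate 6 that collagen median turned to 0.11. Against aCSF1R, 21 of 30 were higher in BF10 (median 0.27 against 0.06) and 24 of 30 in IL-10-Fc (median 0.53 against 0.11). Both of these comparisons share the aCSF1R libraries, and both medians turned negative without aCSF1R replicate 8, to -0.29 and -0.20. The first also turned negative without BF10 replicate 3. With the library set as a term the fit called more of the whole table, at 0.00645% in BF10 against control IgG, 0.0258% in IL-10-Fc against control IgG, 2.01% in aCSF1R against control IgG, 0% in BF10 against IL-10-Fc, 2.82% in BF10 against aCSF1R and 2.13% in IL-10-Fc against aCSF1R. It called 0 collagen genes in all 6, and at an unadjusted p under 0.05 limma then found 1, 0, 1, 0, 2 and 2 of 30 in the same order. Of all 15504 genes, it found 581, 574, 1168, 141, 1714 and 1488 at that limit.

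Col4a5 had the smallest p of any collagen gene in the 6 comparisons. It went against the majority in BF10 and in IL-10-Fc, each against control IgG and against aCSF1R. In aCSF1R against control IgG (0.41) and BF10 against IL-10-Fc (-0.31) it went with the majority. Its chain joins those of Col4a3 and Col4a4 in the kidney glomerulus and that of Col4a6 in smooth muscle basement membranes. Col4a5 was at 4.00, 8.46 and 8.90 TPM in control IgG, 6.65, 11.97 and 10.2 in aCSF1R, 5.32, 2.93 and 4.21 in IL-10-Fc and 1.91, 3.26 and 4.49 in BF10. The means were 7.12 ± 2.71 TPM in control IgG, 9.60 ± 2.71 in aCSF1R, 4.16 ± 1.20 in IL-10-Fc and 3.22 ± 1.29 in BF10 (SD, n = 3). All BF10 and all IL-10-Fc values lay below all aCSF1R values, while the control group overlapped each of the others. The log2 change was -1.34 in BF10 against aCSF1R (SE 0.38, unadjusted p = 0.0049, limma adjusted p = 0.319). It was -1.03 in IL-10-Fc against aCSF1R (limma adjusted p = 0.946) and -0.93 in BF10 against control IgG (limma adjusted p = 0.788). Within the lower-sum libraries alone the BF10 against aCSF1R value was -1.32, and within the higher-sum libraries alone, 1 against 1, it was -1.39. When the set was held in the fit, limma gave an adjusted p of 0.0743, and over all alternatives the adjusted p ranged from 0.0743 to 1, so it did not pass the threshold in any of them. The 8 macrophage markers summed to 81.1 to 251 TPM in aCSF1R and 1460 to 2249 TPM in the other 9 libraries, and their part in the Col4a5 difference was not tested.

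**Figure D3:**
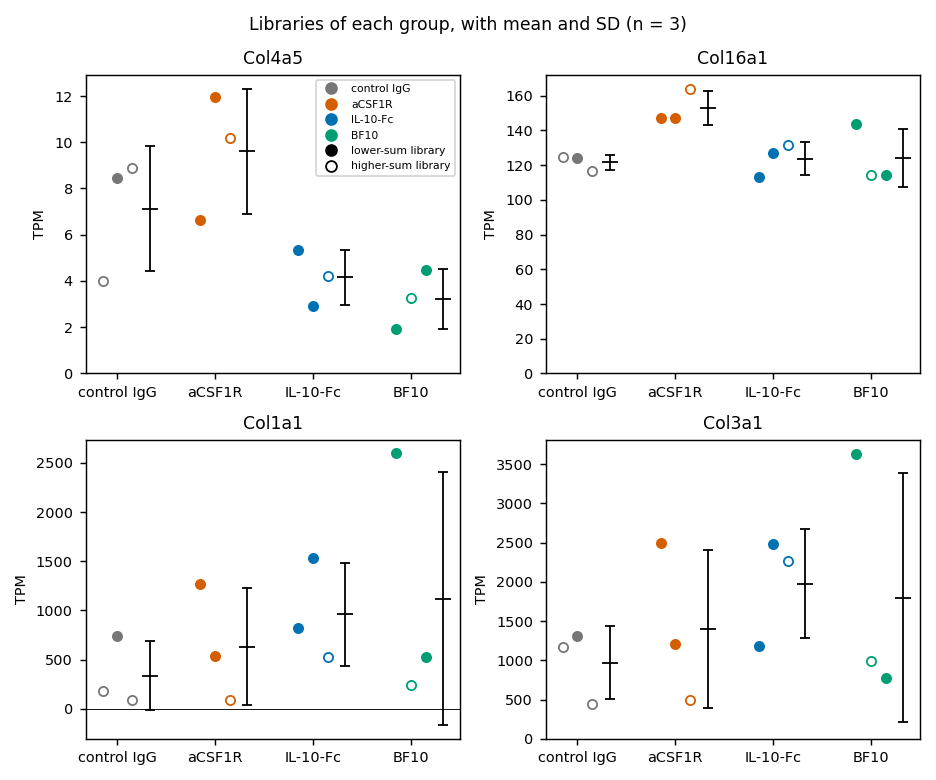
TPM (y axes, linear) of Col4a5, Col16a1, Col1a1 and Col3a1 in the 3 libraries of each group (x axes), with the mean and SD as a bar beside the points and open points for higher-sum libraries. All aCSF1R values of Col16a1 lie above those of the other groups. For Col4a5 the aCSF1R mean is the highest, but its values overlap those of control IgG. The SD of Col1a1 in BF10, 1287 TPM, exceeds its mean of 1120.3 TPM.

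Chains that share a triple helix were compared as ratios of TPM within a library, which do not change with the scaling between libraries. Col4a1 over Col4a2 was 2.01, 1.89 and 2.02 in control IgG, 1.91, 2.05 and 2.19 in aCSF1R, 2.05, 1.99 and 2.27 in IL-10-Fc and 1.89, 2.10 and 1.86 in BF10. The SD of its log2 ratio over the 12 libraries was 0.09, against 0.91 and 0.96 for the log2 levels of the 2 genes. Col1a1 over Col1a2 was 0.858, 0.908 and 1.04 in control IgG, 1.04, 0.933 and 0.952 in aCSF1R, 1.10, 1.08 and 0.762 in IL-10-Fc and 1.09, 1.11 and 1.07 in BF10, with an SD of 0.17 on the log2 scale against 1.54 and 1.51 for the single genes. Both pairs thus kept their ratio while Col1a1 varied 29.2-fold and Col4a1 7.37-fold over the same libraries. Col6a1 over Col6a2 lay between 1.24 and 2.52.

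Other pairs split by the library set rather than by treatment. Col3a1 over Col1a1 was 6.42, 1.76 and 4.66 in control IgG, 1.96, 2.25 and 5.61 in aCSF1R, 1.44, 1.61 and 4.34 in IL-10-Fc and 1.40, 4.10 and 1.49 in BF10. It lay between 1.40 and 2.25 in the 7 lower-sum libraries and between 4.10 and 6.42 in the 5 higher-sum libraries. Within each set the BF10 and IL-10-Fc values lay below those of control IgG and aCSF1R, an order seen in the data and not tested. Col5a1 over Col5a2 was 0.738 to 1.04 in lower-sum and 0.251 to 0.407 in higher-sum libraries. Col6a3 over Col6a1 was 0.459 to 1.08 and 0.197 to 0.507, and Col8a1 over Col8a2 was 39.9 to 108 and 16.5 to 47.4, so these 2 overlapped between the sets.

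**Figure D4:**
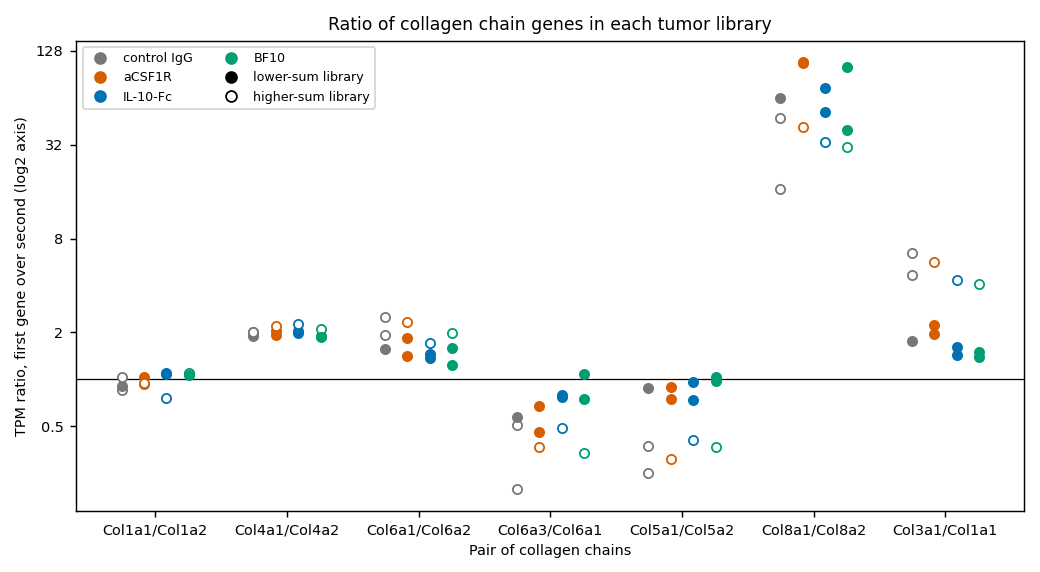
Ratio of TPM of 7 pairs of collagen chain genes (x axis) in each of the 12 libraries (y axis, log2 scale), colored by group, with open points for the 5 higher-sum libraries. Col1a1/Col1a2 stays at 0.762 to 1.11 and Col4a1/Col4a2 at 1.86 to 2.27, while the open points of Col3a1/Col1a1 lie above, and those of Col5a1/Col5a2 below, all filled points.

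The sets themselves were compared with the groups held in the fit. In TPM, limma called 19 of 30 collagen genes lower in the higher-sum libraries and 0 higher, beside 54.0% of all genes lower and 5.23% higher. By sign alone, 28 collagen genes had lower and 2 higher fitted values. The median log2 difference was -0.96 for the collagen genes and -0.68 for all genes, a difference of -0.28 between the medians. TPM divides by the FPKM sum that defines the sets, so the division itself lowers the higher-sum libraries. Part of the calls in TPM is thus fixed by the scaling. On FPKM without rescaling, the median of all genes was -0.33. The lowest values were those of Col1a1 at -2.27, Col1a2 at -2.15, Col6a3 at -1.81 and Col8a1 at -1.76, all past the threshold. Col4a2 and Col4a1 were lower by -1.60 and -1.47 and also passed. Col5a2, Col16a1 and Col4a5 were at 0.06, 0.02 and -0.03 and did not pass. With median-of-ratios scaling, which centers the median of all genes at -0.02, 9 collagen genes passed. The 6 lower were Col1a1, Col1a2, Col4a1, Col4a2, Col6a3 and Col8a1, and the 3 higher were Col4a5, Col5a2 and Col16a1. Over all 15504 genes, limma called 3068 lower and 3608 higher in that scaling, so the collagen counts were not read as a result about these genes. Col3a1, at -0.76 in TPM and 0.12 in that scaling, did not pass in either. The GC content of the longest coding transcript had a Spearman correlation of -0.36 with the set difference over 15486 genes and of -0.01 over the 30 collagen genes. Such values share their libraries and are given as descriptions. Over all genes the relation bent, with a median difference of 0.09 at 37.5% to 40% GC, -1.04 at 55% to 57.5% and -0.13 at 65% to 67.5%. A rank correlation does not show such a bend. The collagen genes had a median GC of 56.5%. Transcript length had correlations of -0.36 and -0.20 in the same order, with median lengths of 2672 and 5794 bases. The part of GC and length in the set difference was not tested.

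**Figure D5:**
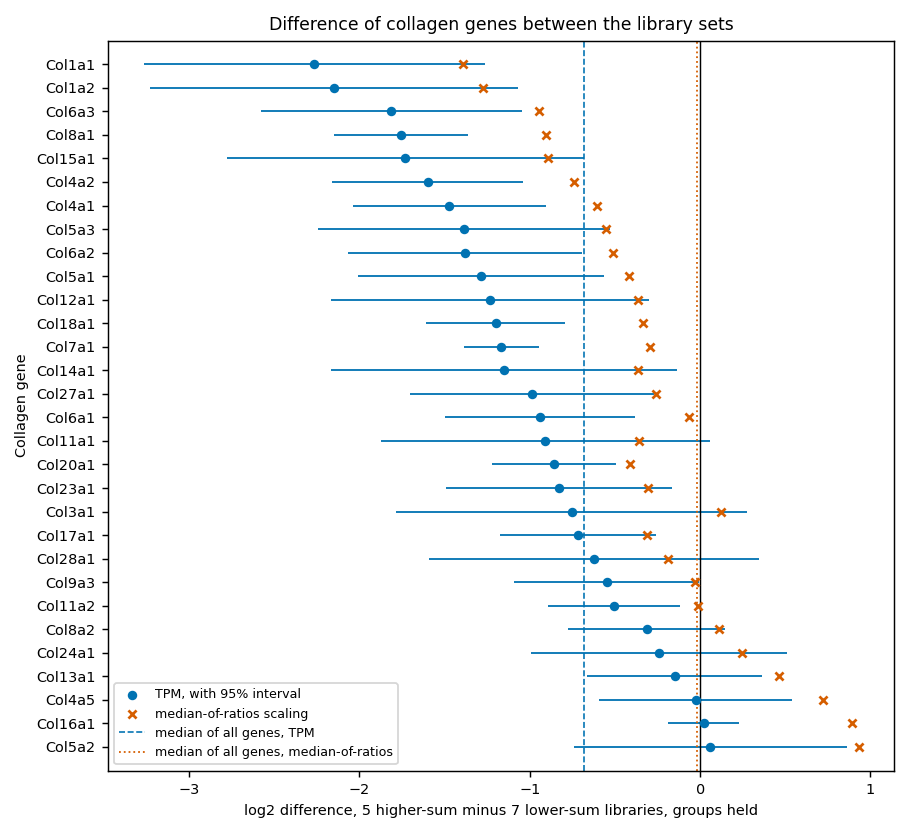
Log2 difference between the 5 higher-sum and 7 lower-sum libraries with the groups held (x axis) for the 30 tested collagen genes (y axis), as TPM with 95% intervals (points) and with median-of-ratios scaling (crosses), and the median of all genes in each scaling as vertical lines. Col1a1 and Col1a2 lie farthest to the left in both scalings and Col5a2, Col16a1 and Col4a5 farthest to the right.

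Genes that make, trim, bind and degrade collagen were followed as lists chosen with earlier results of these data known. Of 20 tested genes of collagen biosynthesis, which hydroxylate, fold and export the chains, 0 were called by limma in the 6 comparisons. The smallest p was that of Plod2, a lysyl hydroxylase, at 73.7, 56.7 and 51.2 TPM in control IgG, 89.0, 67.7 and 69.6 in aCSF1R, 56.0, 64.0 and 80.9 in IL-10-Fc and 41.4, 54.9 and 52.7 in BF10. All its BF10 values lay below all its aCSF1R values, with a log2 change of -0.59 (SE 0.23, unadjusted p = 0.0288, limma adjusted p = 0.898). For BF10, IL-10-Fc and aCSF1R in turn, the list had median log2 changes against control IgG of 0.60, 0.81 and 0.38. Of 10 genes of processing and cross-linking, 0 were called and all 10 had higher fitted values than control IgG in each treated group, with medians of 0.68, 0.92 and 0.55. Of all genes, 77.4%, 79.7% and 73.5% were also higher, with medians of 0.32, 0.35 and 0.24. Between the library sets, limma called 9 of these 10 genes lower in the higher-sum libraries, with a median of -1.60 against -0.68 for all genes. Control IgG held 2 higher-sum libraries of 3, and the list medians against control IgG are given without the library set as a term. Loxl1, a lysyl oxidase relative, had the smallest p, at 21.6, 27.5 and 12.5 TPM in control IgG, 51.7, 29.0 and 11.5 in aCSF1R, 33.4, 68.8 and 37.5 in IL-10-Fc and 86.1, 26.5 and 28.4 in BF10. Its log2 change in IL-10-Fc against control IgG was 1.14 (SE 0.59, unadjusted p = 0.0823, limma adjusted p = 0.738), with no overlap between those 2 groups.

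Of 12 fibril-regulating proteoglycans and partners, 0 were called, and their medians were 0.32, 0.56 and 0.16. Tnxb, a tenascin that binds collagen fibrils, had the smallest p and was at 0.774, 0.508 and 1.71 TPM in control IgG, 5.80, 7.38 and 0.0326 in aCSF1R, 2.42, 13.0 and 1.79 in IL-10-Fc and 2.97, 1.59 and 1.65 in BF10. Its log2 change was 1.40 in IL-10-Fc against control IgG (SE 0.79, unadjusted p = 0.104, limma adjusted p = 0.738), and those 2 groups did not overlap. Of 10 genes of collagen degradation, 0 were called, and their medians were 0.84, 1.01 and 0.28. Ctsk, the collagen-cleaving cathepsin K, was at 205, 131 and 32.2 TPM in control IgG, 69.5, 40.0 and 31.2 in aCSF1R, 257, 323 and 409 in IL-10-Fc and 763, 243 and 193 in BF10. Its aCSF1R values lay below all BF10 and all IL-10-Fc values. The log2 change was 2.87 in BF10 against aCSF1R (SE 0.67, limma adjusted p = 0.128) and 2.84 in IL-10-Fc against aCSF1R (limma adjusted p = 0.1604). With the library set as a term these passed, at adjusted p of 0.0377 and 0.0491 by limma.

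Without the library set term, collagen receptors gave the only calls among the pathway lists. Lair1, an inhibitory collagen receptor of leukocytes, was at 23.6, 18.4 and 23.9 TPM in control IgG, 2.19, 1.53 and 1.91 in aCSF1R, 23.7, 22.9 and 26.3 in IL-10-Fc and 32.7, 30.6 and 26.8 in BF10. The aCSF1R values lay far below the other 9. Lair1 fell by 3.00 on the log2 scale in aCSF1R against control IgG (SE 0.23, limma adjusted p = 0.000212). Relative to aCSF1R, Lair1 was higher by 3.43 in BF10, where limma gave an adjusted p of 0.000127. The same gene was higher by 3.14 in IL-10-Fc than in aCSF1R, with an adjusted p of 0.000317 by limma. It was 1 of 9 receptor genes tested, and the other 8, among them integrins and discoidin receptors, were not called in any of the 6 comparisons. All 8 macrophage markers also fell in aCSF1R against control IgG, 6 of them past the threshold, with a list median of -3.21. Their part in the Lair1 difference was not tested.

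Markers of cells that make collagen were summed for each library. The 8 fibroblast markers summed to 424 to 661 TPM in control IgG, 461 to 800 in aCSF1R, 525 to 972 in IL-10-Fc and 402 to 1209 in BF10. The 8 mural and myofibroblast markers summed to 63.5 to 298, 73.0 to 367, 344 to 722 and 176 to 988 TPM in the same order. IL-10-Fc lay above control IgG in the mural sum without overlap. Tagln and Acta2, with means of 171 and 139 TPM, made up most of that sum. Singly, Acta2 and Cspg4 separated these groups, whereas Tagln and the other mural markers overlapped. No marker of the 2 lists was at 0 in any library, none was called in the 6 comparisons, and their part in the collagen levels was not tested. Between the library sets, limma called 5 of 8 mural and 3 of 8 fibroblast markers lower in the higher-sum libraries and 1 fibroblast marker higher. Of all genes it called 54.0% lower and 5.23% higher. The 6 endothelial markers summed to 42.1 to 90.8 TPM in control IgG, 33.5 to 111 in aCSF1R, 65.8 to 112 in IL-10-Fc and 51.4 to 137 in BF10. The 5 epithelial tumor markers summed to 923 to 2174, 668 to 2316, 1334 to 2204 and 1441 to 2196 TPM in the same order. All groups overlapped in both sums. Between the library sets, 5 of 6 endothelial and 4 of 5 epithelial markers were called lower in the higher-sum libraries. The 9 cartilage and bone markers summed to 13.9 to 59.6 TPM, and 3 of them passed the filter on low values. These were Runx2, Sox9 and Ibsp, with means of 13.8, 12.7 and 7.06 TPM. Of the other 6, Acan did not exceed 0.0626 TPM, Matn1 was listed at 0 in 11 of 12 libraries, and the highest values were 1.51 TPM in Alpl and 1.13 TPM in Comp.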

How the data were processed

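Per the labels and the methods of the study, RNA from tumor tissue was extracted with TRIzol, polyadenylated RNA was made into stranded libraries, and these were sequenced on an Illumina NextSeq. The submitters' processing notes name STAR 2.7.5a, RSEM 1.3.3, DESeq2 1.28.0 and the builds mm10 and GRCm38. The authors deposited FPKM values for 12 libraries, so that read totals are unknown. Relative depth was estimated in 24 to 41 genes per library, from values taken as worth 1 read. It came to between 0.927 and 1.05 of the median. These genes were chosen because their values above 0 lay within 1.2-fold of each other. That choice limits the range in advance, so the estimate cannot show whether the libraries differ in depth. The authors' 4 tables of their own comparisons, with fold changes and p-values, were not used.

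FPKM values were divided by the library sum and multiplied by 1000000 (TPM), and log2(TPM + 1) was fitted with limma 3.58.1 in R 4.3.3 over all 12 libraries, with 1 mean per group, an intensity trend and Benjamini-Hochberg adjustment over 15504 genes. The fit was run on simulated data with known changes, and its recovery there is not reported here. That run thus says nothing here on changes that the fit could miss. A call needed adjusted p under 0.05 and a 1.5-fold change, the limits that the study's methods give for differential genes. For the gene lists it took to pathway tools, the study names p under 0.05 without an adjustment, so the rules differ there. Library sets were divided at an FPKM sum of 700000. Library columns matched the labels, and 0 columns were left unmatched.

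Named genes were the 2 most abundant of each class with a mean of at least 1 TPM, the smallest p in each direction of each comparison, any call, and for each pathway list its calls or its smallest p. Members, classes, lists and tests were chosen with earlier results of these data known. Gene positions and transcripts came from GENCODE on GRCm38, whose release differs from the authors' annotation, and promoter windows from RefSeq. All 30 tested members had a transcript. Alternatives changed the pseudocount, scaling, filter, samples, library set, replicate block and threshold, and left out each library in turn.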

Additional observations from a re-analysis of the deposited data

How the results depend on the processing

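The 6 treatment comparisons called 0 collagen genes under each alternative run, including each library left out in turn (0 to 0 genes). The median log2 changes without 1 library ranged from 0.24 to 1.03 in BF10 against control IgG, 0.49 to 1.10 in IL-10-Fc against control IgG, -0.10 to 0.95 in aCSF1R against control IgG, -0.60 to 0.11 in BF10 against IL-10-Fc, -0.29 to 0.66 in BF10 against aCSF1R and -0.20 to 0.90 in IL-10-Fc against aCSF1R. The sign turned without aCSF1R replicate 4 in the third, without BF10 replicate 6 in the fourth and without aCSF1R replicate 8 in the last 2, and in BF10 against aCSF1R also without BF10 replicate 3. In the higher-sum libraries alone, the median of IL-10-Fc against aCSF1R was 1.40, with 1 library in each group.

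Same-numbered libraries of different groups correlated at -0.66 to 0.42, positively only where both belonged to the same library set. The sign thus went with the set, so this check cannot tell whether the numbers pair the samples. With the replicate number as a replicate block, medians became 1.41 in aCSF1R against control IgG, -0.51 in BF10 against aCSF1R and -0.24 in IL-10-Fc against aCSF1R, with 2 residual degrees of freedom, and 0 collagen genes were called. Among the named genes recomputed under each alternative, Col14a1 and Col23a1 turned sign. Other collagen genes were not followed through all alternatives, and some of them also turned sign in 1 library set alone or with the set as a term. Col14a1 in aCSF1R against control IgG became 0.00 in lower-sum libraries alone (0.0029 unrounded), 0.56 with the replicate block and 0.48 without aCSF1R replicate 8, the highest of -0.99 to 0.48 without 1 library. Col23a1 in BF10 against IL-10-Fc became -0.53 in higher-sum libraries alone and -0.34 without BF10 replicate 3, the lowest of -0.34 to 0.67 without 1 library.

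The count of 19 collagen genes that differed between library sets became 12 on FPKM without rescaling, 9 with median-of-ratios scaling and 6 with the replicate block, and 14 to 20 without 1 library. Over all 15504 genes, limma called 8369 lower and 811 higher in TPM. It called 5295 lower and 1904 higher on FPKM, and 3068 lower and 3608 higher with median-of-ratios scaling. The causes were not tested. Median-of-ratios scaling moved the all-gene median of that difference from -0.68 to -0.02 and the medians against control IgG from between 0.24 and 0.35 to between -0.01 and 0.03. Low collagen genes rest on few fragments, and their number is unknown.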
